A study of Mus musculus with 28 samples.

Results

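The 5 untreated lymphoma cultures richest in macrophage transcripts were compared with the 5 poorest, out of 14 untreated cultures and 28 arrays in all. The 14 untreated arrays were ranked by the mean log2 value of 4 genes, Adgre1, Cd14, Ms4a7 and Mpeg1. The 5 highest arrays are called macrophage-rich and the 5 lowest macrophage-poor, and all other genes were compared between them. The members were thus chosen by measured values, so the 4 genes, and every gene that varies with them, differ between the untreated groups by the way the groups were made. The names describe transcript levels, since no cells were counted.

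Every culture came from a primary B-cell lymphoma of an Emu-myc transgenic C57BL/6 mouse, taken from a lymph node and transduced with Bcl2 by a retrovirus. The Emu enhancer drives Myc in the B-cell lineage, and Bcl2 blocks apoptosis. The macrophage-rich cultures were the untreated arrays of lymphomas 5560, 9584, 403, 3594 and 7050, and the macrophage-poor ones those of lymphomas 5766, 2949, 1570, 1467 and 5043, in descending order of the marker mean. The same 10 lymphomas each have 1 more array, from a culture exposed to Adriamycin (ADR), which damages DNA through topoisomerase II, at 0.05 µg/ml over 5 days. Lymphomas 3769, 6054, 2581 and 9583 lay in the middle and entered neither group. Each lymphoma has 1 culture per treatment, so the 5 lymphomas of a group are the replicates. All cultures grew on a feeder layer of mouse fibroblasts (NIH 3T3, gamma-irradiated), and the labels name no sort or gate, so RNA of lymphoma, feeder and other cells of the lymph node can be present. In such bulk RNA more cells of a type and more RNA per cell cannot be told apart.

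Macrophages are phagocytes that arise from embryonic precursors or blood monocytes, live on the growth factor CSF1 and take up dying cells and microbes. Their lineage factor PU.1 (Spi1) also serves B cells, at a lower level. In lymph nodes and lymphomas they remove apoptotic B cells, and Emu-myc lymphomas are known for the scattered macrophages among the tumour cells.

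The values are log2 expression values on a shared scale. The lowest genes read about 2 to 4, where differences are compressed, and the number of arrays limits the precision. The median of an array lay between 4.71 and 4.75 in the macrophage-rich and between 4.71 and 4.80 in the macrophage-poor untreated group. The 3' minus 5' signal of actin, a measure of RNA integrity, averaged 0.35 ± 0.18 in the macrophage-rich and 0.54 ± 0.22 in the macrophage-poor untreated group (SD, n = 5 each), and 0.25 ± 0.11 against 0.59 ± 0.23 in the ADR partners. That of Gapdh averaged 0.03 and 0.02 in the same untreated groups, and 0.04 ± 0.05 against 0.21 ± 0.39 in the ADR partners. The ADR array of macrophage-poor lymphoma 1570 had the highest value of all arrays for both, 0.92 each. Xist, the RNA of the inactive X chromosome, was low in 4 of 5 macrophage-rich lymphomas (all but 7050) and in 0 of 5 macrophage-poor ones, and it was high in 9 of the 14 lymphomas. The labels give no sex. Xist class and macrophage group therefore nearly coincide, and within the Xist-high class only lymphoma 7050 stands for the macrophage-rich group. The Y-linked genes Kdm5d, Eif2s3y and Uty, chosen after their values were seen, averaged 5.15, 5.50 and 4.17 in the untreated macrophage-rich cultures. They averaged 2.59, 3.44 and 3.14 in the untreated macrophage-poor ones. In each group 4 of 5 lymphomas are described as samples of an earlier series.

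The ranking markers are given first, as a description. Adgre1 encodes an adhesion receptor that is the standard surface marker of mouse macrophages. It read 9.84, 9.84, 9.81, 7.96 and 8.80 in the macrophage-rich cultures, against 6.48, 5.35, 4.55, 5.41 and 4.07 in the macrophage-poor ones, each in the order of lymphomas given above. Cd14 encodes the co-receptor for bacterial lipopolysaccharide. Its values were 11.28, 7.89, 10.62, 10.03 and 7.65 in the macrophage-rich cultures, against 4.78, 5.19, 5.49, 5.25 and 4.00 in the macrophage-poor ones. Lymphomas 9584 and 7050 were the 2 lowest for Cd14 in the macrophage-rich group but not for Adgre1, so the 4 genes do not rank the lymphomas alike. Ms4a7, a membrane protein of the MS4A family, averaged 7.89 ± 0.98 in the macrophage-rich and 5.60 ± 0.44 in the macrophage-poor cultures. Mpeg1, the pore-forming protein perforin-2, averaged 10.48 ± 0.76 in the macrophage-rich and 8.48 ± 1.18 in the macrophage-poor cultures. Its ranges overlapped slightly, with 9.48 in macrophage-rich lymphoma 403 and 9.56 in macrophage-poor lymphoma 2949. The mean of the 4 genes was 9.28 ± 0.70 in the macrophage-rich and 6.05 ± 0.52 in the macrophage-poor group (SD, n = 5 each). The 14 values form a slope without a clear gap. The last macrophage-rich lymphoma, 7050, had 8.52 and the next below it, 3769, had 8.36, while the first macrophage-poor lymphoma, 5766, had 6.73 and the next above it, 9583, had 6.94.

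**Figure D1:**
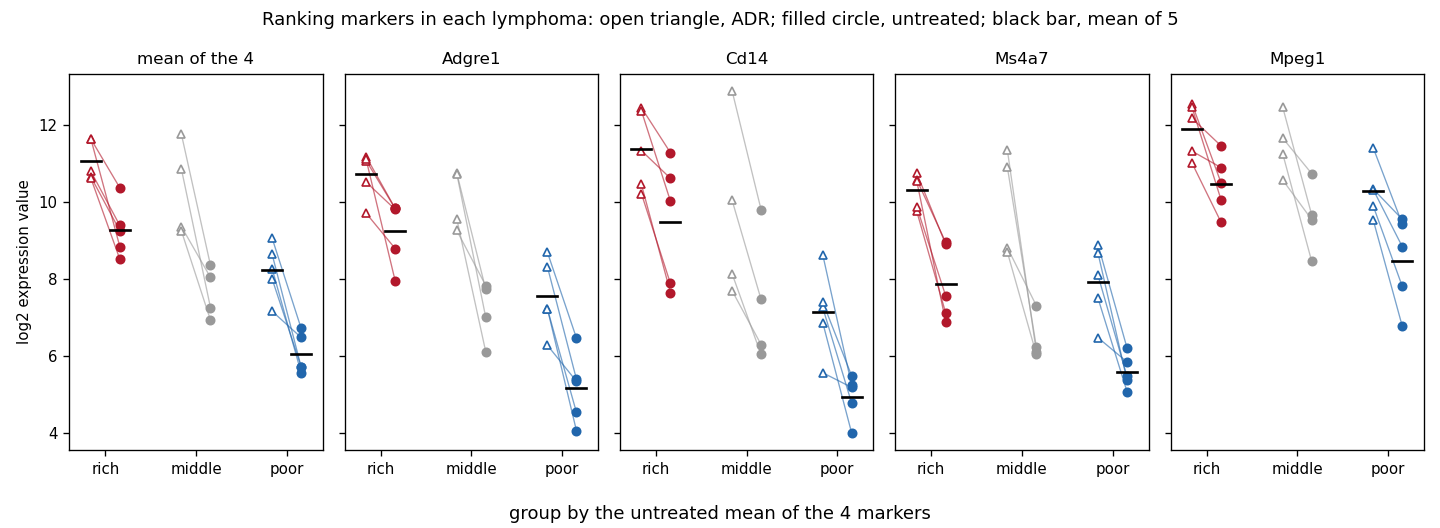
Log2 expression value of the 4 ranking markers and of their mean in each lymphoma, with the macrophage-rich group at the left, the middle lymphomas and the macrophage-poor group at the right. Open triangles are ADR-treated and filled circles untreated cultures, a line joins the 2 cultures of a lymphoma and black bars are means of 5. The ADR means of the 4 markers are 11.08 in the macrophage-rich and 8.23 in the macrophage-poor group.

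Other macrophage genes were read in the same arrays, as a description. Of 35 macrophage identity genes 28 were positive and 3 called higher (0.247% of all genes). Their median was 0.73, and 0.24 with Xist class as a block. In ADR cultures 1 was called higher and 1 lower (1.29% and 1.26% of all genes). Csf1r, the receptor for CSF1, read 10.75, 10.09, 10.81, 9.99 and 9.47 in the macrophage-rich cultures, against 7.61, 6.89, 5.78, 5.31 and 5.81 in the macrophage-poor ones, with no overlap. In the ADR partners Csf1r differed by 2.49 (limma adjusted p = 0.108). Lyz2, the lysozyme of myeloid cells, read 11.9 to 13.6 in the macrophage-rich and 6.21 to 12.1 in the macrophage-poor cultures, so that 2949 lay within the macrophage-rich range and 5766 just below it. Cd68, a lysosomal glycoprotein of phagocytes, averaged 10.29 ± 0.81 in the macrophage-rich and 9.14 ± 0.57 in the macrophage-poor cultures. Several genes typical of resident tissue macrophages lay near the low end of the scale in both groups. Mertk, a receptor for dying cells, averaged 3.63 in the macrophage-rich and 3.42 in the macrophage-poor cultures. Cd163, the haemoglobin scavenger receptor, averaged 2.79 in the macrophage-rich and 2.74 in the macrophage-poor cultures. Vsig4, a complement receptor, averaged 3.45 in the macrophage-rich and 3.36 in the macrophage-poor cultures, and Timd4, a phosphatidylserine receptor, 3.14 and 3.26 in the same order. C1qa, a subunit of the first complement component, read 3.70, 6.30, 3.83, 4.36 and 4.79 in the macrophage-rich cultures, against 3.88, 3.96, 3.84, 3.86 and 3.61 in the macrophage-poor ones. It thus stood out in lymphoma 9584, where its partner subunit C1qb reached 9.59. Fcgr1, the high-affinity IgG receptor, ranged from 5.11 to 8.86 in the macrophage-rich and from 4.69 to 7.74 in the macrophage-poor cultures. The untreated cultures called macrophage-rich therefore share Csf1r, beside the ranking genes Adgre1 and Cd14, but not a full set of resident macrophage genes.

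Markers of other cell types were read in the same arrays. Of 16 granulocyte genes the median difference was 0.09, with 10 positive and 6 negative. The one past the test was Lcn2, which macrophages also express, where 0.247% of all genes were higher. Csf3r and Mmp8 differed by 1.69 each without passing the test. Of the 16 genes 2 were higher without overlap, as were 1.56% of all genes. S100a9, an abundant neutrophil alarmin named after its values were seen, averaged 3.30 in the macrophage-rich and 3.40 in the macrophage-poor cultures. The median difference was -0.01 for 15 dendritic cell genes, 0.04 for 19 T and NK cell genes and 0.04 for 11 endothelial and red-cell genes, with 0 of these 45 genes past the test. For 27 fibroblast genes it was 0.01, their mean level ranging from 4.92 to 5.17 in the macrophage-rich and from 4.93 to 5.40 in the macrophage-poor cultures. For 26 B-lineage genes it was -0.07, with mean levels of 8.36 to 9.14 in the macrophage-rich and 8.54 to 9.55 in the macrophage-poor cultures. The granulocyte list mean ranged from 4.48 to 5.19 in the macrophage-rich and from 4.11 to 4.55 in the macrophage-poor cultures. Its group averages were 4.84 in the macrophage-rich and 4.27 in the macrophage-poor cultures. In untreated cultures the ranges of the 2 groups overlapped for each of these 6 lists. In the ADR partners the granulocyte list mean did not overlap, at 5.05 to 5.75 in the macrophage-rich and 4.32 to 4.91 in the macrophage-poor cultures. The median difference of that list there was 0.08, with 10 positive and 6 negative. Of the 16 genes 1 was called higher there, where 1.29% of all genes were. Csf3r differed there by 2.03 and Mmp8 by 3.29. The part of the 6 lists in the differences below was not tested, except for the fibroblast mean as a covariate.

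The ADR-treated partners, which the ranking did not use, were also apart in the markers. Their marker means were 11.64, 10.80, 10.66, 11.65 and 10.63 in the macrophage-rich lymphomas, against 9.07, 7.17, 8.01, 8.65 and 8.28 in the macrophage-poor ones. The order within a group was not kept. Of the middle lymphomas, 3769 had 11.76, the highest ADR mean of all 14, and 2581 had 10.85, above 9584, 403 and 7050. The 2 groups did not overlap, and the difference was 2.84 (exact two-sided permutation test over all divisions of 10 into 5 and 5, p = 0.0079, the smallest this design allows, n = 5 each). Adgre1 was higher by 3.17, Cd14 by 4.22 and Ms4a7 by 2.37, each with exact p = 0.0079, and Mpeg1 by 1.61 with exact p = 0.0238. Over all 14 lymphomas the untreated and the ADR marker mean correlated with Pearson r = 0.836 (permutation p = 0.00044) and Spearman rho = 0.802 (permutation p = 0.00099). Without 5560 and 5043, the 2 lymphomas farthest from the median, r was 0.799, and among the 11 lymphomas of the earlier series it was 0.815. This was the single relation of its kind computed. The 2 cultures of a lymphoma come from the same mouse, and the arrays were normalized together.

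Between the untreated groups 45 of 18189 genes (0.247%) were higher and 32 (0.176%) lower in the macrophage-rich cultures at an adjusted p of at most 0.05 (limma, Benjamini-Hochberg over all genes but the 4 markers). At an unadjusted p under 0.05 there were 1587 higher (8.73%) and 1432 lower (7.87%). Of the 45 higher genes 41 differed by at least 1 on the log2 scale, a 2-fold change, and of the 32 lower genes 21 did. All 77 had groups that do not overlap, as had 1.56% of all genes in the higher and 1.58% in the lower direction. Macrophage genes among the 45 vary with the ranking genes, so their differences are given as a description and their test is taken from the ADR partners. The middle lymphomas, which entered neither group, had a mean between the 2 group means for 45 of the 45 higher and 25 of the 32 lower genes. The same ranking placed them between the groups, so this is a description and not an independent check. The counts depend on single lymphomas. Without 1570 they were 554 higher and 538 lower, without 7050 they were 182 and 146, without 2949 they were 8 and 4, and without 5043 they were 7 and 3. With Xist class as a block limma called 0 genes in either direction, with 466 higher and 556 lower at an unadjusted p under 0.05. Xist class and macrophage content cannot be told apart with these lymphomas.

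Of the genes called, Acod1, Acp5 and Adgre5 had the largest differences. Xist differed by -5.60, Rgs13, a regulator of G protein signalling, by -4.42, and Saa3 by 4.21 without passing the test (limma adjusted p of 0.0521, 0.177 and 0.0699). Acod1 encodes the enzyme that makes itaconate in stimulated macrophages. It read 11.45, 9.54, 11.84, 10.95 and 10.31 in the macrophage-rich cultures, against 8.24, 7.95, 5.79, 5.38 and 5.78 in the macrophage-poor ones, a difference of 4.19 ± 0.64 (SE). Acp5, a tartrate-resistant acid phosphatase of osteoclasts and macrophages, read 9.82, 10.71, 8.37, 10.40 and 7.49 in the macrophage-rich cultures, against 4.71, 5.02, 7.11, 5.01 and 4.83 in the macrophage-poor ones. Lymphoma 1570 stood well above the other macrophage-poor lymphomas for Acp5 and came close to the lowest macrophage-rich value, that of 7050. Adgre5 encodes CD97, an adhesion receptor of leukocytes. Its values were 9.66, 10.03, 8.78, 10.17 and 7.27 in the macrophage-rich cultures, against 4.81, 5.33, 6.02, 4.73 and 5.04 in the macrophage-poor ones. Lymphoma 7050 was the lowest of the macrophage-rich group for Adgre5, Acp5 and Hexa but not for Cp, where it was the highest. In the ADR partners Acod1 differed by 2.14 (limma adjusted p = 0.0623), Acp5 by 3.99 (adjusted p = 0.0386) and Adgre5 by 3.15 (adjusted p = 0.0363).

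**Figure D2:**
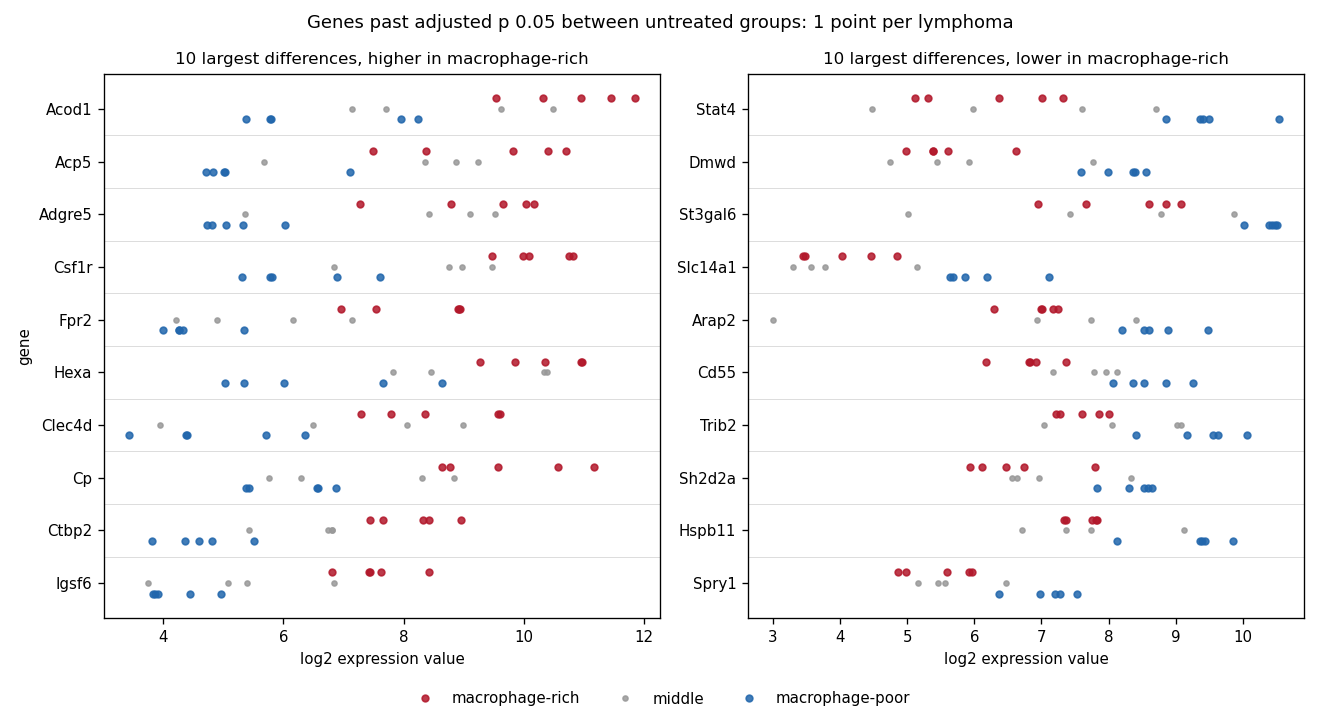
Log2 expression values of the 10 genes with the largest higher and the 10 with the largest lower differences between the untreated groups, with 1 point per lymphoma (macrophage-rich above, middle lymphomas between, macrophage-poor below). No macrophage-rich point lies within the macrophage-poor range for any of the 20 genes. The Csf1r values lie between 9.47 and 10.81 in the macrophage-rich and between 5.31 and 7.61 in the macrophage-poor cultures.

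Igsf6, Clec4e and Fpr2 have a promoter in the RefSeq table (GRCm38.p6) that holds GAGGAA or its reverse complement TTCCTC, the core that PU.1 is known to bind. Spi1, which encodes PU.1, was itself among the 45 genes. The 250 bases before the transcription start are shown for Igsf6 (chr7:121074531-121074780, minus strand), Clec4e (chr6:123289872-123290121, minus strand) and Fpr2 (chr17:17887574-17887823, plus strand), because they carry that core within a short stretch before the start. Each is printed 5′ to 3′ on the gene's strand with the core in capitals.
Igsf6: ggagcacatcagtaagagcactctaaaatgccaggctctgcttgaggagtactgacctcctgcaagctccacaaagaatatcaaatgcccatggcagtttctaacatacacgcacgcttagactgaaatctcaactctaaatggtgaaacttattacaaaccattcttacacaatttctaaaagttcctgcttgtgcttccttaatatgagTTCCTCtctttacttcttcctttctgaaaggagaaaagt
Clec4e: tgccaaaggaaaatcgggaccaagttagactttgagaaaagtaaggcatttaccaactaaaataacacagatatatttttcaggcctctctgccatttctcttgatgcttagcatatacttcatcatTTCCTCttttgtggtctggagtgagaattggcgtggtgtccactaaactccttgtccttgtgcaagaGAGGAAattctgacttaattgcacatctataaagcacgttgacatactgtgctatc
Fpr2: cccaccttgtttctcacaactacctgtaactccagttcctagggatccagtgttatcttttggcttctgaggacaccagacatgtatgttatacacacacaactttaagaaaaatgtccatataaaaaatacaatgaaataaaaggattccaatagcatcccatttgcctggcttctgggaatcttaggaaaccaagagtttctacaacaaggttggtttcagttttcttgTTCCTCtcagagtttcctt
The core begins 39 bases before the start in Igsf6, 123 and 56 bases before it in Clec4e and 19 bases before it in Fpr2. Of the 36 higher genes with a listed promoter 15 (41.7%) held the core on either strand, against 6986 of 27025 genes (25.9%) in the whole table. Of the ranking markers Ms4a7 and Mpeg1 were looked up, and 0 of these 2 held it. A match is a description of letters and not a measured site.

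Igsf6, an immunoglobulin-like receptor of myeloid cells, read 7.62, 8.42, 7.42, 6.81 and 7.45 in the macrophage-rich cultures, against 4.97, 4.44, 3.82, 3.86 and 3.92 in the macrophage-poor ones. Its difference was 3.34 ± 0.30 (SE), and that of Ctbp2, a transcriptional corepressor, was 3.54 ± 0.34, both given as a description. In the ADR partners Igsf6 differed by 3.11 (limma adjusted p = 0.0829) and Ctbp2 by 2.84 (adjusted p = 0.0168). Spi1 itself read 9.57, 9.63, 9.66, 9.08 and 9.29 in the macrophage-rich cultures, against 8.52, 8.66, 8.72, 8.26 and 8.69 in the macrophage-poor ones. The difference of 0.88 was small beside those of the surface receptors, and B cells transcribe Spi1 too. Under ADR Spi1 differed by 0.27 (limma adjusted p = 0.693).

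Pattern-recognition receptors sense microbes and damaged cells. Of 22 measured members 22 had a positive difference, with a median of 1.12, where the median over all genes was 0.02. Past the test were 4 of the 22, where 0.247% of all genes were higher. The 4 were Fpr2, a receptor for formyl peptides (3.81 ± 0.42 SE), and the C-type lectins Clec4d (3.67 ± 0.61), Clec4e or Mincle (3.33 ± 0.49) and Clec7a or dectin-1 (1.27). Clec4e read 8.20, 6.52, 8.52, 8.71 and 6.57 in the macrophage-rich cultures, against 5.11, 4.60, 3.56, 4.77 and 3.80 in the macrophage-poor ones. Lymphomas 9584 and 7050 were again the lowest of the macrophage-rich group, as they were for Cd14. Among the ADR cultures 5 of the 22 were past the test (limma, where 1.29% of all 18193 genes were higher), namely Clec4n, Clec4d, Clec4a2, Clec4e and Clec7a, by 2.42 to 3.75, and 0 were without 5560 or without 5043. Fpr2 differed there by 3.39 (adjusted p = 0.0600), with macrophage-poor lymphoma 5766 at 8.80, above macrophage-rich lymphoma 403 at 8.0.

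Fc receptors and their signalling partners were represented by Tyrobp, the adaptor DAP12 that carries signals of many myeloid receptors. It read 11.90, 11.17, 11.05, 10.93 and 9.98 in the macrophage-rich cultures, against 9.33, 8.96, 8.19, 8.95 and 7.77 in the macrophage-poor ones. Of 15 members 14 had a positive difference in untreated cultures, and 10 were positive and 5 negative in ADR cultures. Tyrobp was the single gene past the test in each treatment, higher by 2.36 ± 0.37 in untreated and by 2.34 (limma adjusted p = 0.0374) in ADR cultures. Over all genes 0.247% were called higher in untreated and 1.29% in ADR cultures. Pilra, an inhibitory receptor, differed by 2.61 and Pirb by 2.20 without passing it. Among complement genes 10 of 13 had a positive difference and 0 were higher past the test. The anaphylatoxin receptor C3ar1 differed by 3.22 (limma adjusted p = 0.0521).

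Lysosomal genes had smaller differences. Of 32 measured members 29 had a positive difference, 3 were past the test (0.247% of all genes were called higher), and the median was 0.51. That median was 0.02 with Xist class as a block and 0.28 without 5560. Hexa, the alpha subunit of beta-hexosaminidase, read 10.94, 10.97, 9.84, 10.35 and 9.27 in the macrophage-rich cultures, against 6.01, 5.35, 8.64, 7.66 and 5.03 in the macrophage-poor ones. Lymphomas 1570 and 1467 held intermediate levels of Hexa although their marker means were among the lowest. Cathepsin C (Ctsc) was higher by 1.78 and Psap, the precursor of the saposins, by 1.37. Under ADR 9 of the 32 were past the test (limma, where 1.29% of all genes were higher), 1 without 5560 and 0 without 5043, including Ctsl by 2.72, Ctsd by 1.69, Psap by 1.61, Ctsb by 1.56 and the membrane protein Lamp1 by 1.03. All 9 were higher. Ctsc differed there by 1.07 without passing the test (limma adjusted p = 0.159).

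Genes of lipid and iron handling had the largest median of the lists, 1.84, and 17 of 17 members had a positive difference. The median was 0.90 with Xist class as a block and 1.15 without 9584. Past the test were Cp, the ferroxidase ceruloplasmin, by 3.57 ± 0.51 (SE), Slc11a1, the metal transporter NRAMP1 of the phagosome, by 2.65, and Hmox1, which breaks down haem, by 2.21. Over all genes 0.247% were called higher. Cp read 10.57, 9.57, 8.76, 8.63 and 11.16 in the macrophage-rich cultures, against 6.87, 6.56, 5.39, 5.42 and 6.57 in the macrophage-poor ones. Fabp4, a fatty acid carrier of adipocytes and macrophages, differed by 3.50 and the lipase Lpl by 3.40, with limma adjusted p of 0.0503 and 0.0946. In the ADR partners Cp differed by 1.64 (adjusted p = 0.210), where it read 10.20, 9.68, 8.90, 8.81 and 11.54 in the macrophage-rich cultures, against 9.12, 8.18, 5.84, 8.69 and 9.12 in the macrophage-poor ones. The groups overlap there for Cp. Slc11a1 differed by 2.51 (adjusted p = 0.0515) and Hmox1 by 1.55 (adjusted p = 0.159) in the ADR partners. The members Fabp4, Lgals3 and Abca1 were past the test in ADR cultures, Fabp4 by 3.38, the lectin Lgals3 by 3.34 and the cholesterol exporter Abca1 by 2.48. There 1.29% of all genes were higher.

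Secreted inflammatory mediators are products of activated macrophages and of stroma. Of 37 members 29 had a positive difference in untreated cultures. Past the test, where 0.247% of all genes were higher, was 1 member, Lcn2, an iron-scavenging protein. The median of the 37 members was 0.62, and 0.07 with Xist class as a block. Lcn2 read 10.21, 10.29, 7.75, 9.01 and 8.60 in the macrophage-rich cultures, against 6.54, 6.69, 4.69, 6.44 and 5.15 in the macrophage-poor ones. Under ADR 34 of 37 were positive with a median of 1.56, where the median over all genes was -0.04, and 12 were past the test (limma, where 1.29% of all genes were higher). Leaving out 1 lymphoma gave 1 to 15 of them, with 1 without 5043 and 4 without 5560, and the earlier series alone gave 0. The 12 included Saa3, an acute-phase protein (3.35), the chemokines Ccl6 (3.06) and Ccl9 (2.31), and the cytokine genes Il18 (2.14) and Il1a (2.25). Ccl6 read 12.52, 10.82, 12.41, 11.88 and 10.74 in the macrophage-rich ADR cultures, against 9.79, 8.36, 7.58, 8.62 and 8.71 in the macrophage-poor ones. With the mean of the fibroblast genes as a covariate the median was 1.16 and limma called 0 of the 37.

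Interferon-stimulated genes had a median of 0.87 with 22 of 27 positive and 0 past the test in untreated cultures. With Xist class as a block the median was -0.01. Rsad2, the antiviral enzyme viperin, read 8.72, 8.77, 8.60, 6.34 and 7.0 in the macrophage-rich cultures, against 5.50, 5.73, 5.16, 5.75 and 5.08 in the macrophage-poor ones (difference 2.44, limma adjusted p = 0.0503). The groups did not overlap for Rsad2, and 5560, 9584 and 403 were the high ones. For the list mean the same 3 lymphomas read 7.43, 7.55 and 7.99, whereas 3594 lay at 5.96 and 7050 at 6.35, within the macrophage-poor range of 5.95 to 6.63. Genes for uptake of dying cells had a median of -0.05 and 0 of 24 past the test. Of macrophage growth factors and attractants the median was 0.03 with 0 of 11 past the test. Their list mean was 5.982 to 6.214 in the macrophage-rich and 5.741 to 5.977 in the macrophage-poor cultures, narrowly without overlap. Csf1, the growth factor itself, averaged 7.20 ± 0.68 in the macrophage-rich and 6.84 ± 0.35 in the macrophage-poor cultures. Among TGF-beta ligands, receptors and targets the median was 0.09 and 0 of 21 passed, and Tgfb1 differed by -0.24 (adjusted p = 0.702). Under ADR the growth factors and attractants had a median of 0.96, with 9 of 11 positive and 1 called higher. There 1.29% of all genes were called higher. Their ADR list mean was 7.04 to 8.93 in the macrophage-rich and 6.22 to 6.71 in the macrophage-poor cultures.

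Signals that govern phagocytosis were compared as well. Sirpa, the inhibitory receptor of phagocytes for CD47, read 9.29, 9.57, 8.92, 8.22 and 9.23 in the macrophage-rich cultures, against 7.92, 7.67, 6.76, 7.26 and 6.94 in the macrophage-poor ones. Cd47, its ligand on target cells, differed by 0.46 (limma adjusted p = 0.559), and Cd24a by 0.20 (adjusted p = 0.706). Cd274, which encodes PD-L1, differed by 0.89 in untreated cultures without passing the test. In the ADR partners it read 10.64, 10.63, 9.52, 10.16 and 9.23 in the macrophage-rich cultures, against 8.40, 7.56, 8.62, 8.57 and 8.34 in the macrophage-poor ones, higher by 1.74 (adjusted p = 0.0272). Sirpa differed there by 1.53 (limma adjusted p = 0.0943).

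The 32 genes lower in the macrophage-rich cultures included Cd55 from the complement list, H2-Ob from the MHC class II list and Cenpe from the mitosis list. Stat4, a transcription factor of cytokine signalling in lymphocytes, read 5.12, 7.32, 6.37, 5.30 and 7.01 in the macrophage-rich cultures, against 9.49, 9.36, 8.86, 10.53 and 9.40 in the macrophage-poor ones. It was lower by a log2 difference of -3.30 ± 0.46 (limma adjusted p = 0.0200). Dmwd, a WD-repeat protein, read 4.98, 5.38, 5.61, 5.39 and 6.62 in the macrophage-rich cultures, against 8.36, 8.40, 7.58, 7.99 and 8.56 in the macrophage-poor ones. Neither gene overlapped between the groups. The closest values were 7.32 in 9584 and 8.86 in 1570 for Stat4, and 6.62 in 7050 and 7.58 in 1570 for Dmwd. St3gal6, a sialyltransferase, read 8.86, 7.67, 8.60, 6.95 and 9.07 in the macrophage-rich cultures, against 10.51, 10.47, 10.43, 10.01 and 10.39 in the macrophage-poor ones. Its level was nearly constant in the macrophage-poor group and spread over 2 log2 units in the macrophage-rich one.

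Further lower genes were Arap2, a GTPase-activating protein (difference -1.80, adjusted p = 0.0200), Cd55, which speeds the decay of complement convertases (-1.80, adjusted p = 0.0213), Trib2, a pseudokinase (-1.77), and Sh2d2a, an adaptor of lymphocytes (-1.76). Cd55 read 6.83, 7.36, 6.17, 6.81 and 6.92 in the macrophage-rich cultures, against 8.37, 8.53, 8.07, 9.26 and 8.86 in the macrophage-poor ones. S100a10, the partner of annexin A2, averaged 10.79 in the macrophage-rich and 12.06 in the macrophage-poor cultures (adjusted p = 0.00831). H2-Ob, a chain of the MHC class II modulator H2-O, was lower by a log2 difference of -1.31 (adjusted p = 0.0213). In the ADR partners 9 of the 32 genes were again lower past the test (limma, where 1.26% of all genes were lower; 28.1% of the 32 and 3.91% of the 230 lower there), and 27 of 32 had a negative difference. Of the 45 higher genes 23 were again higher (51.1% of the 45 and 9.79% of the 235 higher there), and 45 of 45 had a positive difference. The 2 comparisons share no array but come from the same 10 lymphomas.

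Chromosome of origin was looked at after the lower genes were seen. Of the 32 lower genes 12 lie on chromosome 3, 1.31% of its 913 tested genes, and 7 on chromosome 1, 0.662% of 1057, which leaves 13 on all others. The chromosome 3 genes are S100a10, Sh2d2a, Spry1, Slc16a4, Gyg, Cenpe, Ift80, Ankrd50, Acp6, Eif2a, Lysmd1 and Scamp3, which belong to different pathways. For the 353 genes of chromosome 3 with a mean of at least 7 the median difference was -0.35 in untreated and -0.37 in ADR cultures. Each lymphoma's median deviation of these genes from their mean over 14 lymphomas was -0.23, -0.26, -0.11, -0.19 and 0.09 in the macrophage-rich cultures, against 0.25, 0.14, 0.23, 0.24 and 0.16 in the macrophage-poor ones. The groups did not overlap, and 7050 was the one macrophage-rich lymphoma above 0. Middle lymphoma 6054 had 0.21 and the other middle ones were below 0.

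Chromosome 1 followed another pattern. Its 417 genes of that level had a median difference of -0.24 in untreated and -0.27 in ADR cultures. The deviations were -0.13, -0.14, 0.10, -0.14 and -0.14 in the macrophage-rich cultures, against 0.40, 0.28, -0.13, -0.09 and 0.31 in the macrophage-poor ones. Only 5766, 2949 and 5043 were high, with middle lymphoma 6054 at 0.29, and 1570 and 1467 lay with the macrophage-rich lymphomas. The median difference of the other chromosomes lay between -0.01 and 0.15 in the untreated cultures. DNA copy number was not measured here, and its part in the chromosome 3 and 1 differences was not tested.

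**Figure D3:**
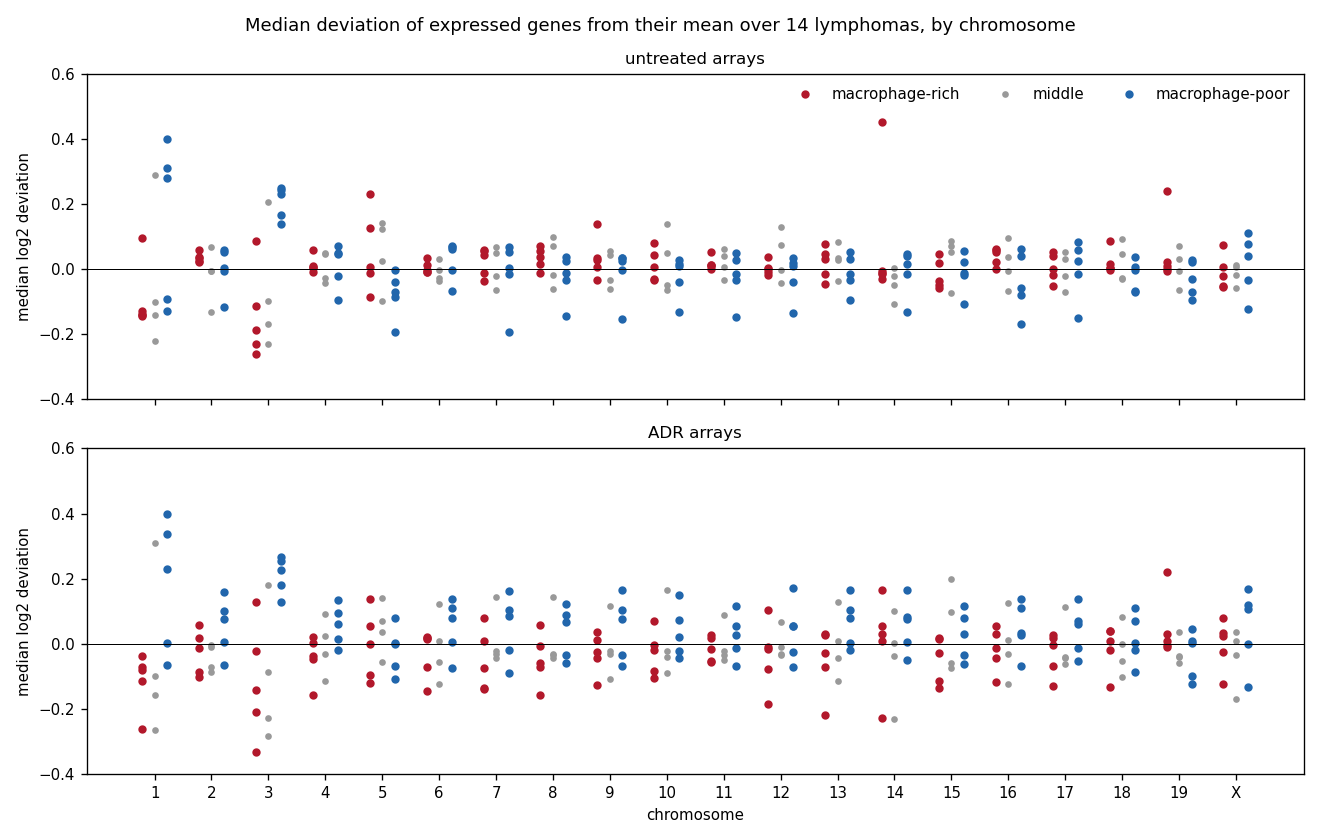
Median log2 deviation of the expressed genes of each chromosome from their mean over the 14 lymphomas, with 1 point per lymphoma (macrophage-rich left, middle lymphomas between, macrophage-poor right), for untreated arrays above and ADR arrays below. On chromosome 3 the untreated macrophage-rich points lie between -0.26 and 0.09 and the macrophage-poor points between 0.14 and 0.25.

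Genes of the lymphoma cells themselves were compared next. Of 26 B-lineage genes 11 had a positive difference and 0 passed the test. Fcrl1, an Fc receptor-like protein of B cells, had the smallest p of them (difference -1.50, limma adjusted p = 0.0503). Myc differed by 0.19 (adjusted p = 0.753) and Bcl2 by -0.46 (adjusted p = 0.315). Jchain, the joining chain of secreted IgM, read 7.21, 13.42, 5.67, 12.62 and 3.40 in the macrophage-rich cultures, against 4.34, 4.68, 12.06, 9.22 and 4.16 in the macrophage-poor ones, so that each group held high and low lymphomas. Cd5, the glycoprotein of B-1 cells, read 7.19, 4.88, 6.60, 4.21 and 9.81 in the macrophage-rich cultures, against 10.46, 10.30, 6.22, 6.89 and 10.57 in the macrophage-poor ones. Its difference of -2.35 did not pass the test (adjusted p = 0.355), and 7050 lay with the 3 high macrophage-poor lymphomas. Of 10 genes of MHC class II and its regulators 9 were negative with a median of -1.17. H2-Ob alone passed, where 0.176% of all genes were called lower. The list mean was highest in 1570 and 1467, at 10.95 and 10.93.

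Cell-cycle and growth genes had medians of opposite sign in the 2 treatments. Of 29 G2 and mitosis genes 0 had a positive difference in untreated cultures (median -0.51). Cenpe, a centromere kinesin of chromosome 3, passed the test at -1.17 (limma adjusted p = 0.0428), where 0.176% of all genes were called lower. In the ADR partners 29 of 29 were positive with a median of 0.70 and 0 passed. The list mean was 8.64, 9.34, 9.82, 9.47 and 9.26 in untreated macrophage-rich cultures, against 10.00, 9.60, 9.73, 10.00 and 9.84 in macrophage-poor ones. Lymphoma 5560, the highest in markers, was the lowest here, and 403 lay within the macrophage-poor range. Of 28 ribosome biogenesis genes and other Myc targets 23 were positive in untreated cultures (median 0.45, 0 past the test), whereas 1 was positive in ADR cultures (median -0.55, 1 past the test, nucleolin or Ncl at -0.66). Of 23 p53 targets 19 were negative in untreated cultures (median -0.48), with 0 past the test.

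**Figure D4:**
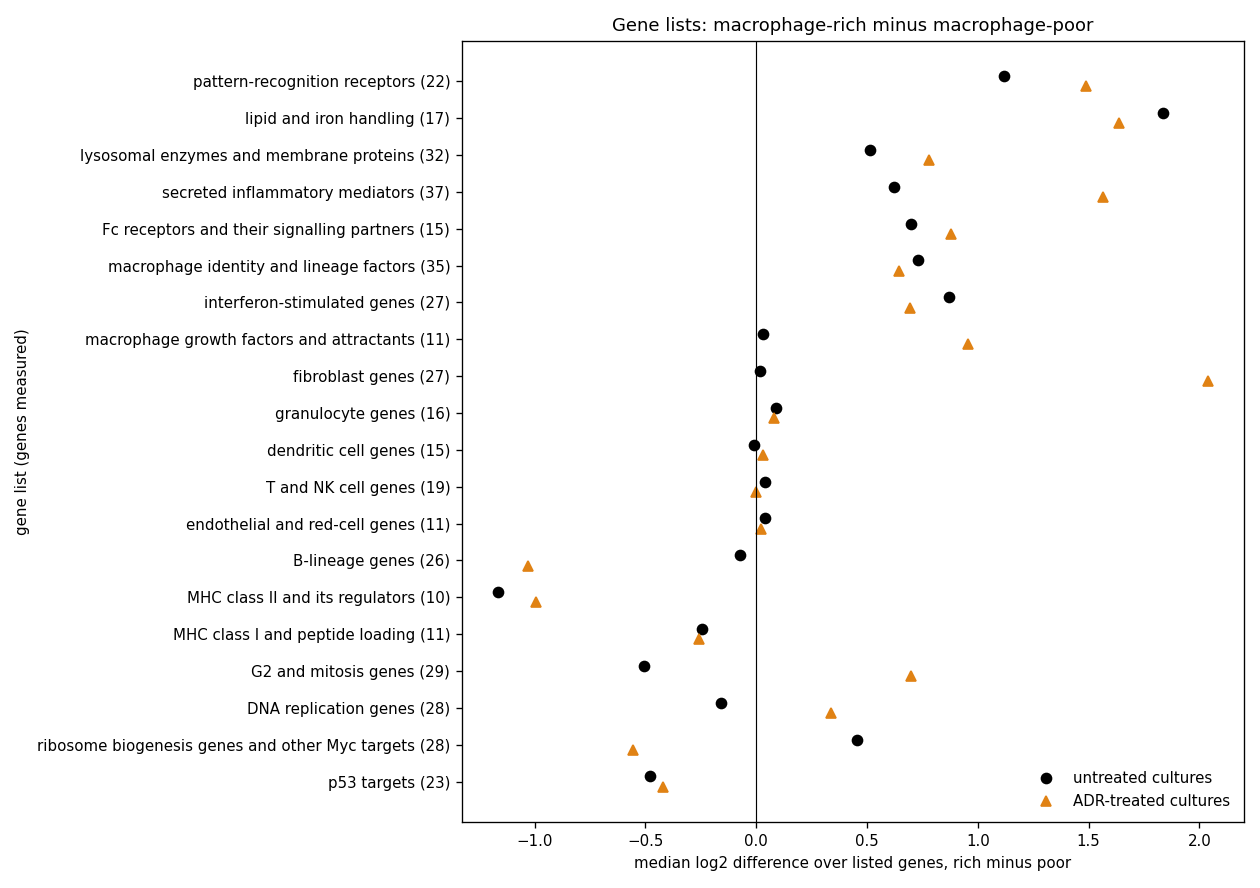
Median over the genes of each list of the log2 difference, macrophage-rich minus macrophage-poor, in untreated cultures (circles) and ADR-treated cultures (triangles), with the number of measured genes in brackets. The fibroblast list has a median of 0.01 in untreated and 2.04 in ADR cultures, and the G2 and mitosis list -0.51 and 0.70.

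In the ADR partners 235 of 18193 genes (1.29%) were higher and 230 (1.26%) lower in the macrophage-rich lymphomas (limma). At an unadjusted p under 0.05 there were 1855 (10.2%) and 2031 (11.2%). Of the calls 169 higher and 117 lower ones differed at least 2-fold. Without 5043 the counts were 10 higher and 7 lower, and with Xist class as a block 1 and 0, with 479 and 510 at an unadjusted p under 0.05. Cd302, a C-type lectin-like receptor of myeloid cells, read 9.97, 8.55, 8.68, 10.37 and 6.74 in the macrophage-rich ADR cultures, against 4.72, 3.43, 6.26, 4.92 and 4.36 in the macrophage-poor ones. It was higher by 4.12 (adjusted p = 0.0229), beside 3.11 in untreated cultures. Acp5 was higher by 3.99 (adjusted p = 0.0386), haptoglobin (Hp) by 3.94 (adjusted p = 0.0377), Hexa by 3.88 and Clec4n or dectin-2 by 3.75.

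Clec4n read 10.01, 7.29, 9.93, 9.93 and 10.16 in the macrophage-rich ADR cultures, against 5.40, 4.74, 6.27, 6.59 and 5.60 in the macrophage-poor ones. In untreated cultures it differed by 1.40 (adjusted p = 0.140), with 9584 at 4.60 inside the macrophage-poor range of 4.10 to 5.02. Dram1, a lysosomal protein induced by p53, was higher by 3.57, Clec4a2 by 3.54, Bst1, an ectoenzyme of myeloid and stromal cells, by 3.50 and Lcn2 by 3.38. Irf8, a factor that B cells and myeloid cells share, was lower by a log2 difference of -1.25 (adjusted p = 0.0347), named after its value was seen.

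Lower in the macrophage-rich ADR cultures were the Gimap genes, a cluster of GTPases of lymphocytes on chromosome 6 that act on lymphocyte survival. All 8 measured members (Gimap1, 3, 4, 5, 6, 7, 8 and 9) passed the test with groups that do not overlap, where 3.19% of all genes were lower without overlap. Gimap7 read 3.37, 4.50, 4.36, 4.47 and 5.86 in the macrophage-rich ADR cultures, against 8.53, 9.67, 8.28, 8.75 and 8.28 in the macrophage-poor ones, a difference of -4.19 (adjusted p = 0.00663). Gimap4 read 3.68, 7.08, 5.19, 6.58 and 10.27 in the macrophage-rich ADR cultures, against 11.70, 11.71, 11.17, 11.96 and 11.94 in the macrophage-poor ones, with 7050 close to the macrophage-poor level. The other members differed by -1.89 to -3.32. In untreated cultures 8 of 8 had a negative difference, of -0.94 to -3.32, and 0 of 8 passed the test. There 3 of 8 had groups that do not overlap, where 1.58% of all genes were lower without overlap. Gimap7 read 5.85, 7.93, 4.35, 5.50 and 8.12 in the untreated macrophage-rich cultures, against 10.04, 10.01, 8.99, 9.42 and 9.88 in the macrophage-poor ones (adjusted p = 0.0555). Lymphoma 403 had the lowest value of the macrophage-rich group for all 8 genes in untreated cultures.

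**Figure D5:**
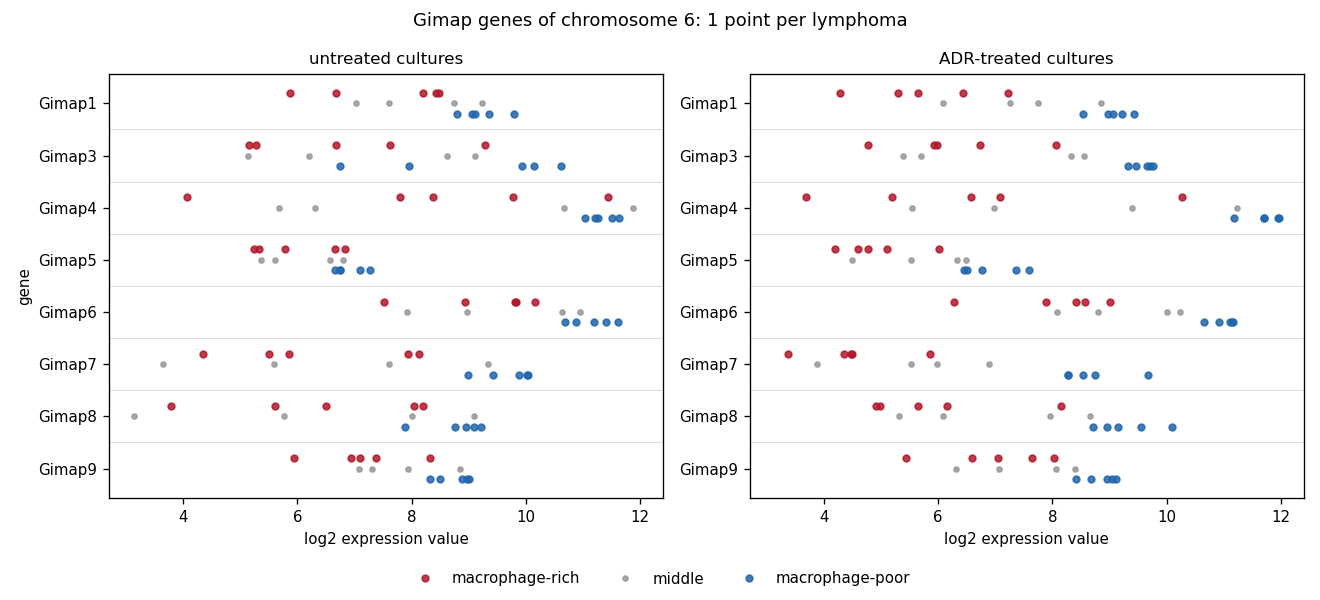
Log2 expression values of the 8 Gimap genes in untreated (left) and ADR-treated (right) cultures, with 1 point per lymphoma (macrophage-rich above, middle lymphomas between, macrophage-poor below). In ADR cultures no macrophage-rich point reaches the macrophage-poor range, and the Gimap7 values lie between 3.37 and 5.86 against 8.28 to 9.67.

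Other lower genes of the ADR comparison were Tmem255a, a membrane protein (-4.63), St3gal6 (-2.97), Bfsp2, a filament protein known from the lens (-2.88), and Cd69, an early activation antigen of lymphocytes (-2.87). Cd69 read 6.65, 8.83, 6.54, 6.18 and 9.56 in the macrophage-rich ADR cultures, against 10.32, 11.28, 9.73, 10.28 and 10.49 in the macrophage-poor ones. Again 7050 came closest to the macrophage-poor group. Of the B-lineage list 25 of 26 were negative with a median of -1.03 (-0.35 with the fibroblast mean as a covariate), and Fcrl1 passed the test (-2.51, adjusted p = 0.0433). The list mean was 7.08, 8.76, 7.39, 8.03 and 7.78 in the macrophage-rich ADR cultures, against 8.27, 8.40, 9.28, 8.82 and 9.30 in the macrophage-poor ones. A lower share of lymphoma RNA and lower levels per lymphoma cell cannot be told apart here.

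Fibroblast genes, which the feeder cells also express, were read in the ADR cultures. Of 27 members 27 had a positive difference with a median of 2.04, although 0 passed the test (limma). Their mean level was 8.93, 5.93, 9.0, 7.49 and 6.62 in the macrophage-rich ADR cultures, against 7.28, 5.51, 5.75, 5.29 and 5.44 in the macrophage-poor ones. Lymphomas 5560 and 403 were far above the rest, while macrophage-rich lymphomas 9584 and 7050 lay below macrophage-poor lymphoma 5766. Col1a1, a collagen chain, read 9.60, 4.97, 9.91, 6.97 and 6.5 in the macrophage-rich ADR cultures, against 8.93, 5.22, 4.45, 4.22 and 4.93 in the macrophage-poor ones. With the fibroblast mean as a covariate limma called 0 genes in either direction (730 higher and 604 lower at an unadjusted p under 0.05). In that fit Acp5 differed by 4.79 (adjusted p = 0.287), Gimap7 by -3.60 (adjusted p = 0.117) and Cd14 by 3.52 (adjusted p = 0.255). The list medians there were -0.35 for B-lineage genes, -0.14 for MHC class II and -0.28 for ribosome biogenesis, and 0.59 for lysosomal genes and 1.33 for pattern-recognition receptors.

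The ADR change of each lymphoma, its ADR minus its untreated value, was compared between the groups as a test of the difference itself. The change was larger in the macrophage-rich lymphomas for 63 of 18189 genes (0.346%) and smaller for 62 (0.341%), with 1615 (8.88%) and 1989 (10.9%) at an unadjusted p under 0.05 (limma). The untreated arrays that formed the groups are subtracted in it, so genes that follow the ranking are described only. The 4-marker mean gained 1.27, 1.41, 1.40, 2.80 and 2.11 under ADR in the macrophage-rich lymphomas, against 2.34, 0.68, 2.28, 2.92 and 2.70 in the macrophage-poor ones. The counts rest on single lymphomas, as leaving out any one of 8 of the 10 lymphomas left between 0 and 3 genes in either direction, whereas without 9584 there were 489 and 602 and without 1570 there were 238 and 350.

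Rgs1, which damps chemokine receptor signals in B cells, changed by 2.83, 3.12, 2.58, 3.00 and 2.06 in the macrophage-rich lymphomas, against 0.69, -0.68, 1.14, -0.18 and 0.52 in the macrophage-poor ones. The groups do not overlap, as for 2.62% of all genes with a smaller and 1.69% with a larger change, and the difference was 2.42 ± 0.33 (SE, limma adjusted p = 0.0435). Its untreated level was 4.78 to 7.37 in macrophage-rich and 6.33 to 10.24 in macrophage-poor cultures (limma adjusted p = 0.128). Its ADR level was 7.78 to 9.60 in macrophage-rich and 7.47 to 10.07 in macrophage-poor cultures. Lingo3, a leucine-rich repeat membrane protein, changed by -1.19, -1.08, -1.35, -1.57 and -1.48 in the macrophage-rich lymphomas, against 0.23, 0.28, -0.42, 0.12 and -0.14 in the macrophage-poor ones. Lingo3 was one of the 45 genes higher in untreated macrophage-rich cultures, by 1.64, and differed by 0.29 under ADR (adjusted p = 0.475). Nxt2, an mRNA export factor, differed by 0.03 in untreated cultures (adjusted p = 0.958) and was higher by 1.05 in macrophage-rich ADR cultures (adjusted p = 0.0229).

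Of the 28 ribosome biogenesis genes and other Myc targets 28 had a more negative change in the macrophage-rich lymphomas, with a median of -1.08 and 7 past the test, where 0.341% of all genes were. They were Srm, Nop2, Cad, Ppan, Polr1a, Mybbp1a and Pes1. Srm, the spermidine synthase, changed by -1.84, -0.58, -1.30, -0.94 and -1.22 in the macrophage-rich lymphomas, against -0.07, 1.17, -0.10, 0.80 and 0.34 in the macrophage-poor ones. Polr1a, the large subunit of RNA polymerase I, had a negative change in 5 of 5 macrophage-rich lymphomas and a positive one in 4 of 5 macrophage-poor ones. Of the G2 and mitosis genes Cdc25c (1.46) and Prc1 (1.77) passed the test, where 0.346% of all genes had a larger change. Of the 29 genes of this list 29 had a less negative change, with a median of 1.27. Their list mean changed by -1.11, -0.23, -1.54, -1.52 and -1.47 in the macrophage-rich lymphomas, against -2.77, -3.90, -2.32, -1.83 and -1.46 in the macrophage-poor ones, which overlap through 5043. The fibroblast list gained 3.76, 0.78, 3.98, 2.57 and 1.69 in the macrophage-rich lymphomas, against 1.88, 0.41, 0.77, -0.01 and 0.50 in the macrophage-poor ones, and with its mean as a covariate 0 genes were past the test (674 larger and 653 smaller at an unadjusted p under 0.05).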

How the data were processed

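RNA of 28 cultures (14 lymphomas, each untreated and ADR-treated) was measured on Affymetrix Mouse430_2 arrays. The deposited values are log2 expression values that the authors made with RMA in Partek 6.5, per the submitters' processing notes. Scanner files were not used. A genome build for the probe sets is not given in the sources used here. Of 45101 probe sets 34945 carried 1 gene symbol in the platform annotation, 932 several and 9160 none. Of those with 1 symbol 34741 matched RefSeq by Entrez ID. The probe set with the highest mean stood for each of 18193 genes, 9010 of which had more than 1. Among the 159 genes named, 8 had another probe set with a difference of the opposite sign (Cd24a, Cdt1, Col1a1, Ncl, Polr1a, St3gal6, Tap1 and Tyms).

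Groups were compared by linear models with moderated variances (limma 3.58.1, R 4.3.3), with p adjusted by Benjamini-Hochberg over all genes and called at 0.05 or less. The 4 ranking genes were left out where untreated arrays entered. The ADR change was paired through the lymphoma identifier in the labels. Single values were tested by exact permutation over all divisions into 5 and 5, and correlations with 100000 permutations (Python 3.11.15, scipy 1.17.1). P-values measure the spread between lymphomas. The fit was tested on simulated data of 18193 genes in 5 against 5 arrays, where it recovered 71.2%, 92.3% and 100% of log2 changes of 1, 2 and 4, with 7 false calls among 185. Each simulated gene varied independently of the others. Differences that many genes share, as with Xist class or fibroblast RNA, were not simulated, so these rates need not hold for the real arrays.

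The members, gene lists and tests were chosen with earlier results of these data known. The genes named were the 10 largest differences in each direction among those called without overlap (untreated and ADR), up to 3 of each list, the 5 smallest p of the ADR change, the ranking markers and a set list. This rule gave 120 genes, and 39 more, such as Spi1, Ccl6, Psap, Gimap5, Gimap9, Xist and Col1a1, were chosen after their values were seen. The chromosome summary, the promoter search and the Xist block were added after seeing the data. The alternatives tried were the choice of probe set, a filter on dim genes, quantile normalization, 4 or 7 lymphomas per group, the middle lymphomas as a group, other ranking genes, the marker mean as a covariate, the fibroblast mean as a covariate, the earlier series as a block or alone, and leaving out each lymphoma.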

Additional observations from a re-analysis of the deposited data

Results flagged for a closer look

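Of 254 groups of 5 lymphomas checked, 13 had 1 lymphoma far from the others by Dixon's criterion, which chance gives in about 1 of 20. Lymphoma 403 was low among the macrophage-rich ADR cultures for the mean of the macrophage identity list (7.76, others 8.43 to 8.63) and of the Fc receptor list (8.29, others 9.44 to 9.90). In untreated macrophage-rich cultures it was low for Arap2 (6.29, others 6.99 to 7.25). Lymphoma 9584 was low among the macrophage-rich ADR cultures for Clec4n (7.29, others 9.93 to 10.16) and Fabp4 (6.94, others 9.07 to 9.29). Lymphoma 2949 was low among the macrophage-poor ADR cultures for the interferon list (5.87, others 7.37 to 7.63), the checkpoint list (7.15, others 7.60 to 7.76) and Cd274 (7.56, others 8.34 to 8.62). Lymphoma 5766 was high among the macrophage-poor cultures for the fibroblast list under ADR (7.28, others 5.29 to 5.75) and for Fpr2 untreated (5.34, others 4.00 to 4.33). Lymphoma 1570 was high for Acp5 (7.11, others 4.71 to 5.02) and low for Hspb11 (8.12, others 9.36 to 9.85) among the untreated macrophage-poor cultures, and 1467 was low for St3gal6 (10.01, others 10.39 to 10.51).

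The ADR change differed between macrophage-rich and macrophage-poor lymphomas, by a test of the difference itself (limma adjusted p = 0.0435 each), for Lingo3 (-1.35), Nxt2 (1.01), Abi2 (1.39), Rgs1 (2.42) and Ccdc34 (1.54). These are the 5 genes of smallest p. The untreated arrays that formed the groups are subtracted in this change. Lingo3 was among the genes called higher in untreated macrophage-rich cultures, by 1.64, and differed by 0.29 under ADR. Its change is therefore given as a description only.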

How the results depend on the processing

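Of the called genes, 46 untreated, 55 ADR and 11 ADR-change calls were followed gene by gene, and 0 of these changed direction. The other called genes were not followed. Some list medians did change direction. The untreated interferon median, 0.87, was -0.01 with the Xist block. The untreated B-lineage median, -0.07, was 0.02 with 4 against 4, 0.16 with the earlier series alone, 0.09 without 5043, 0.02 without 7050 and 0.01 with the marker mean as a covariate over 14 lymphomas, and the untreated fibroblast median, 0.01, lay between -0.12 and 0.05. Medians of the ADR change also changed sign for interferon, lipid and iron, macrophage identity and MHC class II genes. Counts of called genes moved by over 1.5 times under many (limma, adjusted p at most 0.05; the count at an unadjusted p under 0.05 stands in brackets beside each 0). The untreated count of higher genes, 45, became 99 with genes of a mean of at least 5, 16 with 7 against 7 lymphomas, 4 with the earlier series alone, 0 (466) with the Xist block, 101 with the marker mean as a covariate over 14 lymphomas and 6 with it over the 9 Xist-high ones. The untreated count of lower genes, 32, became 17 with the most variable probe set, 104 with genes of a mean of at least 5, 67 with quantile normalization, 1 with 7 against 7, 12 with the fibroblast covariate, 0 (1102) with the earlier series alone, 0 (556) with the Xist block, 3 over the 9 Xist-high lymphomas and 2 when ranked by Csf1r, C1qa, C1qb, Mertk and Fcgr1.

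The ADR count of higher genes, 235, became 466 with 4 against 4, 148 with the middle lymphomas as a group, 0 (730) with the fibroblast covariate, 8 with the earlier series alone and 1 with the Xist block. The ADR count of lower genes, 230, became 144, 0 (604), 5 and 0 (510) under the last 4 of these. For the ADR change, 63 larger became 120 with genes of a mean of at least 5, 0 (1598) with 4 against 4, 0 (1358) with 7 against 7, 153 with the middle lymphomas, 0 (674) with the fibroblast covariate, 136 with the earlier series as a block and 0 (426) with the Xist block. The 62 smaller became 195, 0 (1810), 0 (1816), 235, 0 (653), 160 and 0 (595) in that order, and 100 with quantile normalization. With no replicate block, that is without pairing by lymphoma, the ADR change gave 0 (1100) larger and 0 (1291) smaller.

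Leaving out 1 lymphoma gave 7 to 554 higher and 3 to 538 lower genes untreated, 10 to 451 and 7 to 405 in ADR cultures, and 0 to 489 and 0 to 602 for the ADR change. Untreated, the counts without 5043 were 7 and 3, without 2949 8 and 4, without 1467 13 and 8, without 5560 14 and 9, without 403 16 and 8, without 5766 20 and 7, without 9584 22 and 13, and without 3594 13 lower. In ADR cultures they were 35 and 27 without 5560, 39 and 24 without 1570, 40 and 26 without 2949, 57 and 31 without 3594, 61 and 37 without 1467, 132 and 90 without 403, 401 and 405 without 9584 and 451 and 381 without 7050. Of the 46 untreated calls followed gene by gene, 46 were kept with quantile normalization, without 1570 and without 7050, 44 with genes of a mean of at least 5, 8 without 2949 or without 5043, 10 with 7 against 7 or when ranked by the other 5 genes, 3 over the 9 Xist-high lymphomas, 2 with the earlier series alone, 0 with the Xist block and 13 to 28 under the rest. The marker difference in ADR cultures was 3.16 with 4 against 4, 2.17 with 7 against 7 and 2.58 to 3.05 when 1 lymphoma was left out, and r was 0.812 to 0.870 when 1 lymphoma was left out and 0.799 without the 2 farthest from the median. The causes were not tested.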
